A study of Mus musculus with 9 samples.

Results

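The liver X receptors (LXRs) and 7 of their efflux and lipid remodelling targets were followed in cultured mouse valvular interstitial cells, the fibroblast-like cells of the heart valve leaflets. The 9 genes were taken by symbol: Nr1h2 and Nr1h3, which encode LXR-beta and LXR-alpha, and Abca1, Abcg1, Apoe, Pltp, Lpcat3, Arl4c and Smpdl3a. All 9 were among the 51810 genes of the deposited table, and all 9 were among the 13495 genes that entered the tests because their mean over the libraries reached 1 TPM. The unit, TPM, corrects for gene length, so levels of different genes can be set beside each other.

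The cells were grown from mitral and aortic leaflets of C57BL/6J animals, with no genetic change and no animal age named in the sources used here. Serum-fed cultures (10% fetal bovine serum, with insulin, EGF and basic FGF) received buffer (Control), low-density lipoprotein (LDL) or oxidised LDL (oxLDL), each lipoprotein at 50 ug/mL, for 24 h. The Control libraries are labelled untreated but received buffer by the treatment protocol, and serum, itself a source of lipoproteins, was present in all 3 groups. Each group had 3 libraries, numbered 1 to 3. No label says that these were separate cultures or animals, so a p-value here speaks only of the spread among these libraries, which may be technical.

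LXRs are nuclear receptors that bind oxysterols and other sterols made when a cell holds excess cholesterol. With a retinoid X receptor (RXR) partner they sit on paired DNA repeats near their target genes and, once a sterol is bound, raise the export of cholesterol to apolipoproteins and high-density lipoprotein. They act opposite to SREBP2, the factor that raises cholesterol synthesis and LDL uptake when sterol is scarce, and in macrophages of the artery wall they drive the efflux that limits foam cell formation.

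None of the 9 genes passed the test with either lipoprotein. Abca1 and Abcg1, the 2 sterol exporters, were higher than Control in all 3 pairs of the same replicate number for LDL and for oxLDL. So were 6.05% of all genes tested, and the number 2 oxLDL pair of Abcg1 was 1.48 against 1.46 TPM. Pltp, another target, went the other way, lower than Control in all 3 pairs for LDL and for oxLDL. Lower values in all 3 pairs were seen in 17.5% of all genes tested for LDL and 14.0% for oxLDL. The 2 receptors differed from Control by -0.08 to 0.06 on the log2 scale. By pairs, Nr1h2 was higher in 3 of 3 with LDL, the number 1 pair at 59.83 against 59.46 TPM. The share of all genes higher in all 3 LDL pairs was not counted. Nr1h3 was lower in 3 of 3 with oxLDL, as were 14.0% of all genes tested. At an adjusted p under 0.05 in limma, 0 of the 9 were called for LDL against Control, where 0.333% of all genes tested were, 0 for oxLDL against Control (0.0148%), 0 for oxLDL against LDL (0.104%) and 0 in the F test over the 3 treatments (0.237%). At an unadjusted p under 0.05 the count was 0 in each, against 6.65%, 3.86%, 3.91% and 5.57% of all genes.

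Of the 7 genes with a promoter sequence at hand, Abca1 alone held a match to the repeats searched. The spellings that matched were chosen after its sequence had been read, so this match was fixed in advance. LXR-RXR pairs bind direct repeats spaced by 4 bases (the DR4 type), and such a repeat in the promoter of Abca1 is a textbook LXR element. The 250 bases before the RefSeq start of mouse Abca1 (GRCm38.p6, chr4:53159896-53160145, minus strand, written 5′ to 3′ toward the gene) are shown because they hold the 1 match found among these genes, with the match in capitals.

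Abca1 promoter: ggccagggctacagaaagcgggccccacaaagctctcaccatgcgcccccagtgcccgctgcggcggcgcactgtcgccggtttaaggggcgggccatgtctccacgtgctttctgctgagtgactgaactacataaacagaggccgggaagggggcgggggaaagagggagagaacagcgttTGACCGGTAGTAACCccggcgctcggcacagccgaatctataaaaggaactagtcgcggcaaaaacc

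Abca1 element, opposite strand: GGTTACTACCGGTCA

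The match covers 15 bases (chr4:53159948-53159962), from 67 to 53 bases before the start. It was found by searching both strands for 4 spellings, GGTCANNNNNGGTCA, GGTCANNNNNGGTTA, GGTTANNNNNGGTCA and GGTTANNNNNGGTTA, a set that was chosen after the Abca1 sequence had been read. Of 32851 mouse promoter windows of 300 bases, 70 (0.213%) held one of them. The stricter repeat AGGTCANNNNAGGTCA was in 5 windows (0.0152%), none of them of these genes. RefSeq windows were at hand for 7 of the 9 genes, 10 windows in all. A match says only that these letters are present.

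The receptors were both expressed, LXR-beta far above LXR-alpha. Nr1h2, the broadly expressed receptor, was listed at 59.46, 56.61 and 53.62 TPM in Control, at 59.83, 57.85 and 58.71 TPM with LDL, and at 57.66, 50.83 and 55.66 TPM with oxLDL. The 9 values lay within 1.18-fold of each other, the narrowest range of the 9 genes. Nr1h3, the receptor known for high levels in liver, fat and macrophages, was listed at 7.84, 7.05 and 8.46 TPM in Control, at 6.15, 7.68 and 8.75 TPM with LDL, and at 7.49, 6.33 and 8.16 TPM with oxLDL. The groups of Nr1h3 overlapped in all 3 comparisons. The ratio of Nr1h2 to Nr1h3 was 7.32 ± 0.877 (SD, n = 3) in Control, 7.99 ± 1.56 (SD, n = 3) with LDL and 7.52 ± 0.625 (SD, n = 3) with oxLDL.

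Neither receptor passed the test in any comparison. For LDL against Control the log2 difference of Nr1h2 was 0.06 (95% CI -0.10 to 0.21) and that of Nr1h3 was -0.05 (95% CI -0.37 to 0.26). For oxLDL against Control they were -0.05 (95% CI -0.20 to 0.11) and -0.08 (95% CI -0.40 to 0.24). All log2 differences were taken from log2(TPM + 1), a scale that compresses differences of genes at a few TPM. The adjusted p of both receptors in limma was 1 in these comparisons. All 3 oxLDL values of Nr1h2 lay below all 3 LDL values, which the test did not separate (log2 difference -0.10, 95% CI -0.26 to 0.05). Non-overlapping groups, in either direction, were found for 8.31% of all genes tested in that comparison.

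Abca1, the transporter that hands cholesterol and phospholipid to lipid-poor apolipoprotein A-I, was listed at 22.56, 15.57 and 15.63 TPM in Control, at 23.34, 20.17 and 21.46 TPM with LDL, and at 27.23, 20.15 and 21 TPM with oxLDL. The libraries numbered 1 were the highest of each group, and Control 1 lay above some of the treated libraries. Within each replicate number both lipoproteins stood above Control: the TPM ratios were 1.03, 1.3 and 1.37 for LDL and 1.21, 1.29 and 1.34 for oxLDL. Without regard to the numbers the log2 difference was 0.28 for LDL (95% CI -0.08 to 0.64, adjusted p = 0.92 in limma) and 0.34 for oxLDL (95% CI -0.02 to 0.70, adjusted p = 1 in limma).

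Libraries with the same number deviated together across the transcriptome, so the numbers were also entered as a block. With the block the interval of Abca1 was 0.09 to 0.47 for LDL (unadjusted p = 0.011, adjusted p = 0.2 in limma) and 0.15 to 0.53 for oxLDL (unadjusted p = 0.0041, adjusted p = 0.31 in limma). Neither passed over all genes. The 2 comparisons share the 3 Control libraries and are not independent of each other. oxLDL and LDL did not differ in Abca1 beyond the spread (log2 difference 0.06, 95% CI -0.30 to 0.42), an interval that reaches from 0.812-fold to 1.34-fold. With 1 library left out the difference of Abca1 ran from 0.19 (without Control 2) to 0.45 (without Control 1) for LDL, and from 0.21 (without oxLDL 1) to 0.51 (without Control 1) for oxLDL. Without all 3 libraries numbered 1 they were 0.39 and 0.38.

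Abcg1, the transporter that moves cholesterol on toward mature high-density lipoprotein, was the lowest of the 9 genes. It was listed at 2.72, 1.46 and 1.33 TPM in Control, at 4.19, 2.15 and 2.67 TPM with LDL, and at 3.74, 1.48 and 3.07 TPM with oxLDL. The groups overlapped, yet within every replicate number both lipoproteins stood above Control, with TPM ratios of 1.54, 1.47 and 2.01 for LDL and 1.38, 1.01 and 2.31 for oxLDL. The log2 difference was 0.50 for LDL (95% CI -0.17 to 1.17, adjusted p = 0.93 in limma) and 0.39 for oxLDL (95% CI -0.28 to 1.06, adjusted p = 1 in limma). With the block the intervals of Abcg1 were 0.12 to 0.87 and 0.01 to 0.76, and the adjusted p in limma was 0.24 and 0.53. With 1 library left out the difference of Abcg1 ran from 0.29 (without LDL 1) to 0.71 (without Control 1) for LDL, and from 0.20 (without oxLDL 1) to 0.66 (without oxLDL 2) for oxLDL. At levels of 1 to 4 TPM the size rests on the pseudocount: the LDL difference of Abcg1 was 0.65 with a pseudocount of 0.25 and 0.22 with one of 5.

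Abca1 and Abcg1 were the 2 of the 9 genes that were higher in all 3 pairs for both lipoproteins. Among all genes tested, 6.05% were higher in all 3 pairs of both comparisons. Pltp was lower in all 3 pairs for both lipoproteins.

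**Figure D1:**
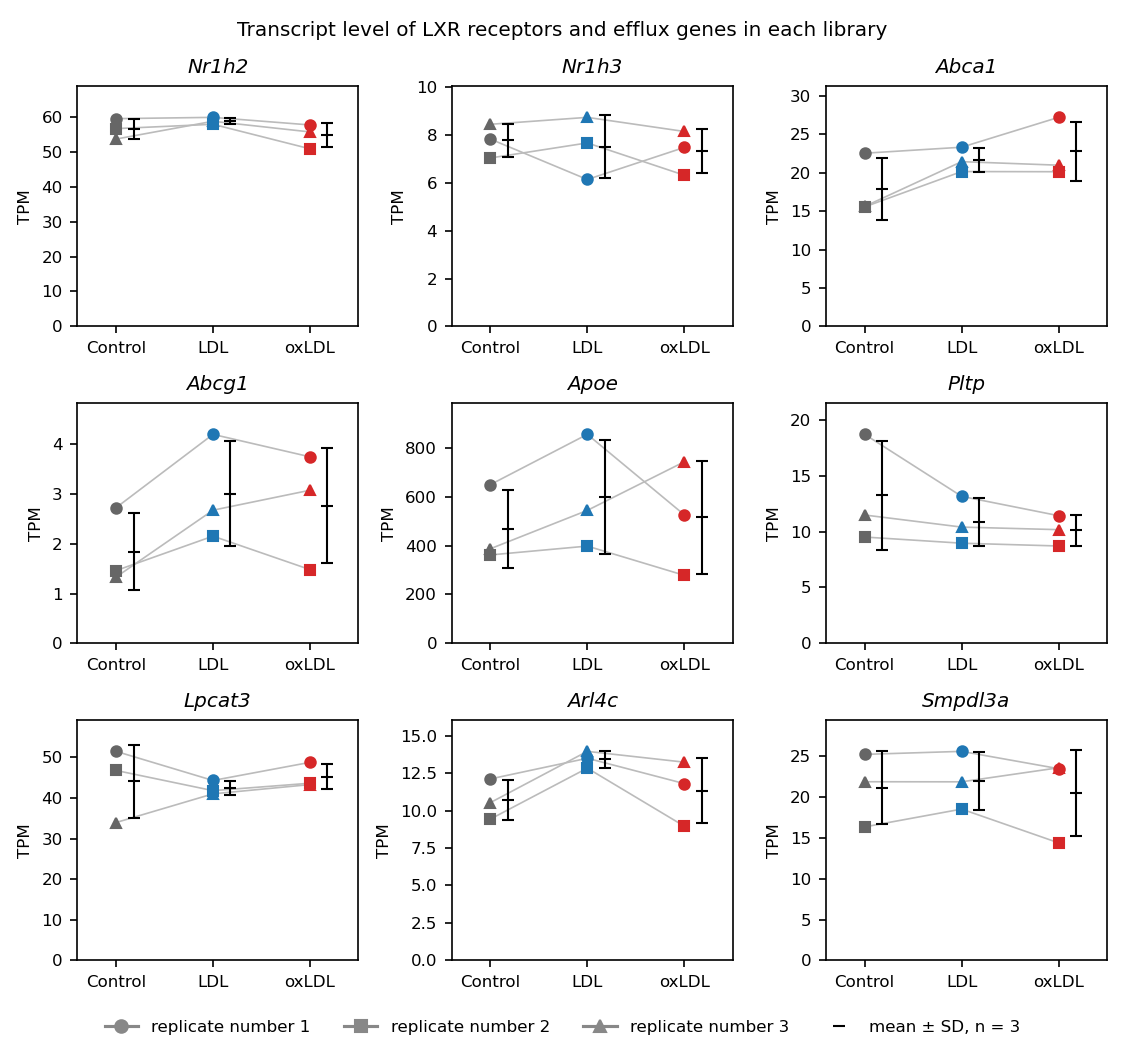
Transcript level (TPM, y axis from 0) of each of the 9 genes in the Control, LDL and oxLDL libraries, with lines joining libraries of the same replicate number and black marks for the mean ± SD (n = 3). In the Abca1 and Abcg1 panels every line lies higher with LDL and with oxLDL than in Control, and in the Pltp panel every line lies lower. The 9 points of Nr1h2 stay between 50.83 and 59.83 TPM.

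Apoe, the apolipoprotein that carries cholesterol out of the cell and is itself an LXR target in macrophages and fat, was the most abundant of the 9. It was listed at 649.28, 361.73 and 387.06 TPM in Control, at 854.68, 397.9 and 543.76 TPM with LDL, and at 525.91, 278.47 and 742.38 TPM with oxLDL. The range within each group, 1.79-fold in Control, 2.15-fold with LDL and 2.67-fold with oxLDL, exceeded the distance between the group means of 466, 599 and 516 TPM. The log2 difference was 0.34 for LDL against Control (95% CI -0.55 to 1.24) and 0.09 for oxLDL against Control (95% CI -0.81 to 0.98). With LDL Apoe stood above the Control library of the same number in 3 of 3 pairs, and with oxLDL in 1 of 3. How many of all genes were higher in all 3 LDL pairs was not counted. The LDL difference of Apoe was 0.0487 without LDL 1, and 0.61 and 0.60 without Control 1 or LDL 2. The oxLDL difference was 0.35 and 0.47 without Control 1 or oxLDL 2, and -0.23 without oxLDL 3, -0.07 without Control 2 and -0.02 without Control 3, so its sign rested on single libraries.

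Summed macrophage and leukocyte markers varied between libraries in an order close to that of Apoe. All 16 markers of that list were above 0 in every library, and their sum was 554, 274 and 534 TPM in Control 1, 2 and 3, 859, 272 and 684 TPM in the LDL libraries, and 607, 121 and 883 TPM in the oxLDL libraries. Apoe ranked the 3 libraries of each group in the same order as this sum in all 3 groups, and so did Smpdl3a. Such an order was shared by 1.28% of all genes tested, list genes left out. In oxLDL the order of Smpdl3a between libraries 1 and 3 rested on 23.48 against 23.59 TPM. In Control the order of the marker sum between libraries 1 and 3 rested on Lyz2 (macrophage lysozyme), the most abundant marker. Without Lyz2, a sum taken after seeing the data, it was 184.05, 98.58 and 194.18 TPM in Control 1, 2 and 3, and Apoe and Smpdl3a then followed it in 2 of 3 groups. Of the 16 markers, 11 were higher in Control 3 than in Control 1, opposite to Apoe. The lowest Apoe of the 9 libraries, 278.47 TPM in oxLDL 2, was in the library with the lowest marker sum, in which Lyz2 was listed at 70.91 TPM against 516.45 TPM in oxLDL 3. The part of these cells in the level of Apoe was not tested, and in bulk RNA more cells of a type and more RNA per cell cannot be told apart.

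Endothelial markers showed a second such order. All 10 were above 0 in every library, and their sum was 467, 221 and 336 TPM in Control, 488, 220 and 244 TPM with LDL, and 469, 209 and 283 TPM with oxLDL, highest in the libraries numbered 1. Abca1 and Pltp ranked the 3 libraries of each group in the same order as this sum in all 3 groups. That held for 2.54% of all genes tested, list genes left out. In Control the order of Abca1 between libraries 2 and 3 rested on 15.57 against 15.63 TPM. Cldn5 and Vwf were lowest in Control 1 (3.89 and 1.92 TPM), where the other endothelial markers were highest. Across Control, LDL and oxLDL the sum was 467, 488 and 469 TPM for number 1 and 221, 220 and 209 TPM for number 2. For number 3 it was 336, 244 and 283 TPM. Abca1 was lowest in Control for all 3 numbers. The part of these cells in the level of Abca1 was not tested. The valve interstitial and fibroblast markers summed to 11671 TPM in the lowest library and 14109.5 TPM in the highest, with all 10 above 0. That list also covers other fibroblasts, so it cannot single out valve interstitial cells. Smooth muscle markers summed to 1056.85 to 1745.44 TPM and cardiomyocyte markers to 10.04 to 64.31 TPM over the libraries. Melanocyte markers summed to 5.5 to 22.24 TPM and adipocyte markers to 11.3 to 33.16 TPM. Transcripts of the fibroblast list were thus present, together with endothelial, macrophage and other listed transcripts.

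**Figure D2:**
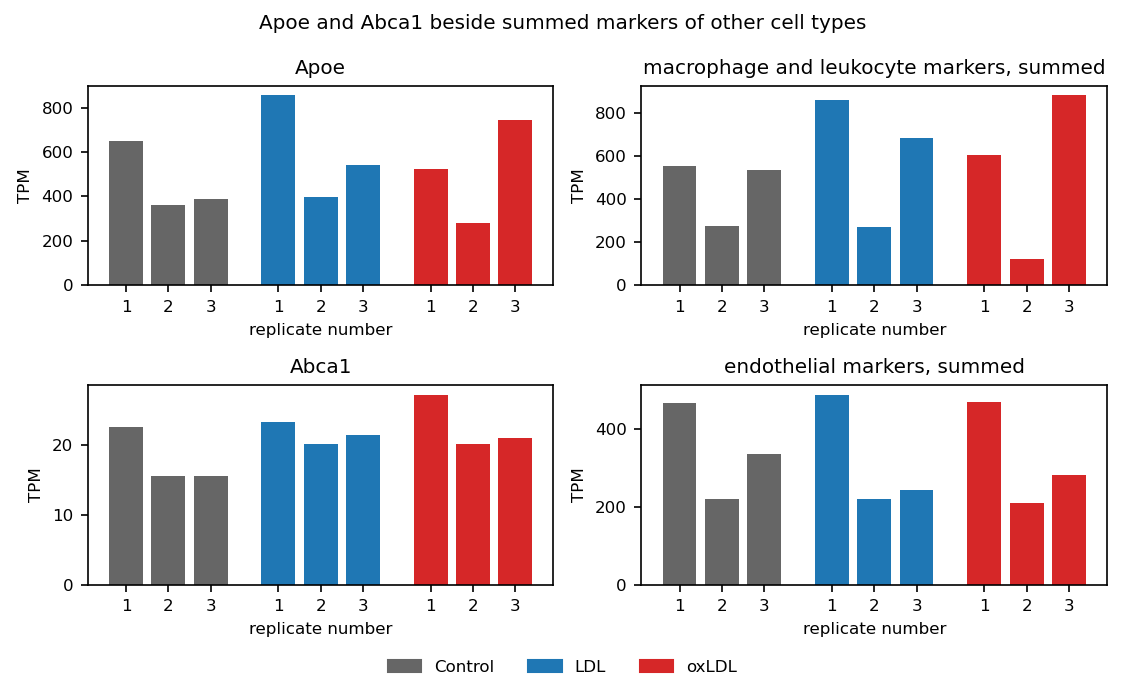
Level (TPM, y axes from 0) of Apoe, of Abca1 and of the summed macrophage and leukocyte (16 genes) and endothelial (10 genes) markers, 1 bar per library, grouped by treatment and numbered by replicate. The bars of Apoe follow the order of the macrophage sum within each group, lowest in library 2, although libraries 1 and 3 of Control change places in the sum without Lyz2. The bars of Abca1 follow the order of the endothelial sum, highest in library 1, with Control 2 and 3 nearly level (15.57 and 15.63 TPM).

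Pltp, which moves phospholipid between lipoprotein particles, was the target whose means were lower with lipoprotein. It was listed at 18.69, 9.51 and 11.48 TPM in Control, at 13.15, 8.96 and 10.4 TPM with LDL, and at 11.42, 8.71 and 10.17 TPM with oxLDL. Every treated library of Pltp stood below the Control library of its number, with TPM ratios of 0.704, 0.942 and 0.906 for LDL and 0.611, 0.916 and 0.886 for oxLDL. Lower values in 3 of 3 pairs were seen in 17.5% of all genes tested for LDL and 14.0% for oxLDL. The log2 differences of -0.23 (95% CI -0.74 to 0.29) and -0.31 (95% CI -0.83 to 0.20) did not pass, nor did they with the block (adjusted p = 0.46 and 0.49 in limma). With the block the interval of Pltp was -0.50 to 0.04 for LDL (unadjusted p = 0.083 in limma). For oxLDL it was -0.58 to -0.05 (unadjusted p = 0.028 in limma). Control 1 set much of the size: without it the differences of Pltp were 0.0323 and -0.0524. Without Control 2 they were -0.42 and -0.51, and the LDL difference was -0.36 without LDL 1 and -0.11 without LDL 2. Of the exonic bases of Pltp, 495 (19.3%) overlap Ctsa, a gene on the other strand listed at 207.65 to 322.53 TPM, and the library kit does not mark strand, so reads there could be counted to either gene.

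Arl4c, a small GTPase of the ARF family that aids cholesterol movement to the cell surface, was the 1 gene of the 9 whose LDL and Control values did not overlap. It was listed at 13.49, 12.83 and 13.95 TPM with LDL against 12.11, 9.43 and 10.53 TPM in Control. With oxLDL its values of 11.8, 8.96 and 13.23 TPM spread over both. Groups that do not overlap, with LDL the higher, were found for 5.61% of all genes tested. The log2 difference of 0.31 for LDL against Control (95% CI -0.01 to 0.63, unadjusted p = 0.055) had the smallest adjusted p of the 9 genes in limma, 0.77. With the block the interval of Arl4c was 0.07 to 0.55 (adjusted p = 0.25 in limma). Between oxLDL and LDL it differed by -0.24 (95% CI -0.56 to 0.08), lower in 3 of 3 pairs, against 14.9% of all genes tested. That difference of Arl4c was -0.0951 without oxLDL 2.

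Lpcat3, the acyltransferase that puts polyunsaturated chains into membrane phospholipids, was listed at 51.47, 46.77 and 33.95 TPM in Control, at 44.3, 41.8 and 41.01 TPM with LDL, and at 48.76, 43.62 and 43.29 TPM with oxLDL. The Control libraries spread more widely (SD 9.07 TPM, n = 3) than the LDL libraries (SD 1.72 TPM, n = 3), and the treated values lay inside the Control range. Its differences were -0.04 (95% CI -0.34 to 0.27) for LDL and 0.06 (95% CI -0.25 to 0.36) for oxLDL. Of its exonic bases 334 (10.2%) overlap Emg1 on the other strand, at 93.98 to 104.63 TPM. Smpdl3a, a sphingomyelinase-like phosphodiesterase induced by LXR in human macrophages, was listed at 25.23, 16.35 and 21.88 TPM in Control, at 25.6, 18.53 and 21.87 TPM with LDL, and at 23.48, 14.4 and 23.59 TPM with oxLDL. Library 2 was the lowest of every group, and the differences of Smpdl3a were 0.06 (95% CI -0.43 to 0.56) and -0.06 (95% CI -0.55 to 0.44).

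In order of Control mean, Apoe (466 ± 159 TPM, SD, n = 3) stood above Nr1h2 (56.6 ± 2.92), Lpcat3 (44.1 ± 9.07), Smpdl3a (21.2 ± 4.48), Abca1 (17.9 ± 4.02), Pltp (13.2 ± 4.83), Arl4c (10.7 ± 1.35), Nr1h3 (7.78 ± 0.707) and Abcg1 (1.84 ± 0.768). Smpdl3a and Abca1, Abca1 and Pltp, and Pltp and Arl4c were neighbours whose Control values overlapped. The other 5 neighbouring pairs were separated in every library of every group. Abca1 and Pltp overlapped in Control but not with LDL or with oxLDL, where the lowest Abca1 value stood above the highest Pltp value. Of all genes tested, 97.9% had a lower mean over the 9 libraries than Apoe and 78% a lower one than Nr1h2, but only 11.9% a lower one than Abcg1.

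Counted together, the 9 genes also gave 0 calls with the block. After adjustment the block fit called 0.852%, 0.126%, 0.259% and 0.667% of all genes in the 3 comparisons and the F test. At an unadjusted p under 0.05 with the block there were 3 for LDL (Abca1, Abcg1 and Arl4c), 3 for oxLDL (Abca1, Abcg1 and Pltp, the last lower), 1 for oxLDL against LDL (Arl4c, lower) and 3 in the F test (Abca1, Abcg1 and Arl4c), against 13.1%, 9.08%, 8.51% and 12.0% of all genes. The median log2 difference of the 9 was 0.06, 0.06 and -0.10 in the order of the comparisons (LDL against Control, oxLDL against Control, oxLDL against LDL), and that of all genes tested was -0.0018, -0.0028 and 0.00087.

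**Figure D3:**
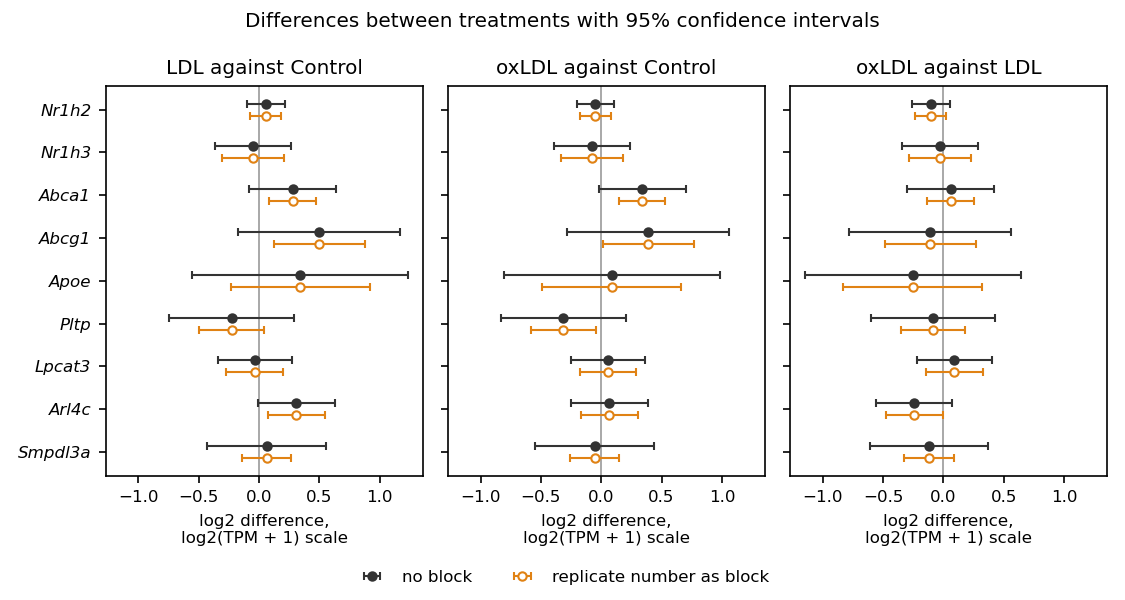
Log2 differences on the scale of log2(TPM + 1) with 95% confidence intervals for the 9 genes in the 3 comparisons, without (filled) and with (open) the replicate number as a block. All filled intervals cross 0. The open intervals of Abca1 and Abcg1 lie above 0 for both lipoproteins against Control, and that of Arl4c for LDL against Control. Those of Pltp for oxLDL against Control and of Arl4c for oxLDL against LDL lie below 0. None of these passed after adjustment over all genes.

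The 2 sources of spread can be read from the sums of squares of log2(TPM + 1) over the 9 libraries. The shares are not corrected for degrees of freedom, so some share falls to treatment even without an effect. Treatment took 40.1% of the spread of Abca1, 44% of Arl4c, 35.9% of Nr1h2 and 28.6% of Abcg1. It took 19.9% in Pltp, 8.37% in Apoe, 5.57% in Lpcat3, 5.11% in Nr1h3 and 3.53% in Smpdl3a. The median gene tested had 16.9% by treatment and 44.2% by replicate number. The replicate number took 87.8% of the spread of Smpdl3a, 67.6% of Pltp, 63.2% of Apoe and 60.1% of Abcg1, and in 7 of the 9 genes it took more than treatment did. Arl4c and Nr1h2 were the other two.

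**Figure D4:**
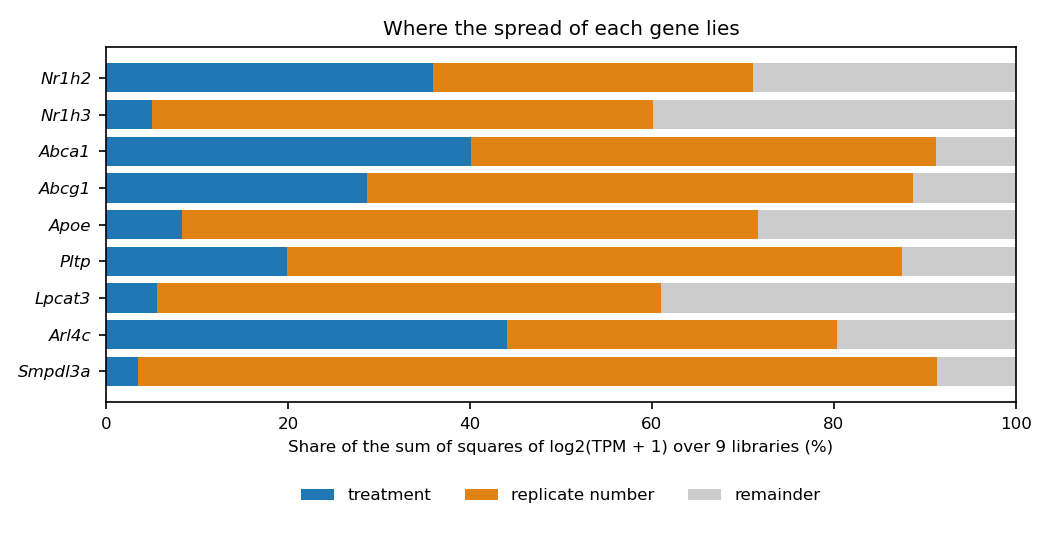
Share (%) of the sum of squares of log2(TPM + 1) over 9 libraries that lies between treatments, between replicate numbers and in the remainder, 1 bar per gene. Smpdl3a lies almost wholly between replicate numbers (87.8%), and Arl4c has the widest treatment segment (44%).

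Partners, coregulators and ligand genes of the pathway were taken from lists. Of all genes tested, 0.333% were called for LDL against Control, 0.0148% for oxLDL against Control and 0.104% for oxLDL against LDL. At an unadjusted p under 0.05 the shares were 6.65%, 3.86% and 3.91%. After adjustment with the block they were 0.852%, 0.126% and 0.259%. Of 20 RXR partners and LXR coregulators, 18 were tested and 0 passed in either direction in any comparison, also at an unadjusted p under 0.05 and with the block. Rxra averaged 24.7 ± 1.22 TPM (SD, n = 3) and Rxrb 22 ± 1.88 TPM (SD, n = 3) in Control, while Rxrg was at 0.187 ± 0.108 TPM (SD, n = 3) and fell under the filter. The widest LDL differences of the list were 0.20 for Ncoa1, a coactivator, and 0.18 for Nrip1, a corepressor (adjusted p = 0.99 and 1 in limma). Of 15 genes for efflux acceptors and high-density lipoprotein handling, 10 were tested and 0 passed in any comparison, also at an unadjusted p under 0.05 and with the block. Apoa1, the acceptor that Abca1 loads, was near 0 in every group and fell under the filter. It was listed at 0 to 0.19 TPM in Control, 0 to 0.11 TPM with LDL and 0 TPM in all 3 oxLDL libraries. Scarb1, the high-density lipoprotein receptor, averaged 38.5 ± 4.48 TPM (SD, n = 3) in Control. Cav1, the caveolae protein, had a Control mean of 252 ± 71.5 TPM (SD, n = 3) and an LDL mean of 189 ± 19.2 TPM (SD, n = 3), and its difference of -0.38 did not pass (adjusted p = 0.81 in limma).

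Of 35 other LXR targets, 24 were tested, and 1 fell and 0 rose with LDL after adjustment. At an unadjusted p under 0.05 in limma, 6 fell and 2 rose, the rises being Srpx2 (log2 difference 0.56) and Agpat3 (0.27). Elovl6, an elongase of fatty acid synthesis that SREBP1 also drives, went from 14.5 ± 2.65 TPM (SD, n = 3) in Control to 7.33 ± 0.211 TPM (SD, n = 3) with LDL (log2 change -0.88, adjusted p = 0.034 in limma). With the block 4 of the list fell, namely Elovl6, Srebf1, Scd2 and Fasn, all of fatty acid synthesis and known targets of SREBP1 as well. When single libraries were left out, Elovl6 passed only without oxLDL 1. Its adjusted p in limma was 0.096, 0.066 and 0.093 without Control 1, 2 or 3, 0.11, 0.14 and 0.18 without LDL 1, 2 or 3, and 0.078 and 0.0502 without oxLDL 2 or 3. With median-ratio scaling, quantile normalization, the 6 compared libraries alone or no filter on low values, Elovl6 did not pass (adjusted p = 0.054, 0.072, 0.087 and 0.1 in limma). Mylip, an LXR target that encodes a ubiquitin ligase, was at 4.82 ± 0.552 TPM in Control, 4.87 ± 0.315 TPM with LDL and 5 ± 1.04 TPM with oxLDL (SD, n = 3 each). For oxLDL against Control and oxLDL against LDL 0 of the 24 passed in limma, with 4 at an unadjusted p under 0.05 in each, and 0 with the block. Scd2, a fatty acid desaturase, differed by -0.51 and 0.80 in these (adjusted p = 1 and 0.68 in limma).

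Of 14 genes for oxysterols and other LXR ligands, 10 were tested, and 4 fell and 0 rose with LDL, in a list that shares its synthesis enzymes with the sterol pathway. At an unadjusted p under 0.05 in limma, 5 fell and 0 rose with LDL. Cyp51, which demethylates lanosterol, went from 51 ± 13.5 TPM (SD, n = 3) in Control to 17 ± 2.52 TPM (SD, n = 3) with LDL (log2 change -1.51, adjusted p = 0.026 in limma). Sqle and Dhcr7, also of sterol synthesis, changed by -1.37 and -1 (adjusted p = 0.01 and 0.031 in limma). The count of 4 was 1 without Control 1 or Control 2, 0 without LDL 2 or LDL 3, and 2 without oxLDL 2. It was also 2 with median-ratio scaling, quantile normalization or the 6 compared libraries alone, and 1 with no filter on low values, and Cyp51 and Dhcr7 did not pass in any of these 4. Ch25h, which makes 25-hydroxycholesterol, was at 94.4 ± 24.2 TPM in Control, 88.4 ± 18.1 TPM with LDL and 98.6 ± 7.36 TPM with oxLDL (SD, n = 3 each). With oxLDL the limma count was 0, with 6 at an unadjusted p under 0.05. In the block fit 3 fell, among them Cyp51 by 0.90 (adjusted p = 0.0091 in limma, against 0.69 when the numbers were ignored). Between oxLDL and LDL the limma count was 0, with 4 at an unadjusted p under 0.05, and in the block fit 3 were higher with oxLDL.

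Of 27 genes for sterol transport, esterification and sensing, 25 were tested, and 4 fell and 0 rose with LDL after adjustment. At an unadjusted p under 0.05 in limma, 5 fell and 1 rose. Srebf2, which encodes SREBP2, was at 47.7 ± 6.05 TPM in Control, 37.1 ± 3.68 TPM with oxLDL and 24.4 ± 1.89 TPM with LDL (SD, n = 3 each). Srebf2, Stard4 and Insig1, of sterol sensing and transport, changed by -0.94, -0.90 and -1.43 with LDL (adjusted p = 0.017, 0.019 and 0.043 in limma). The count of 4 was 1 without Control 1, LDL 2 or LDL 3, and 2 without Control 2 or LDL 1. Insig1 did not pass with median-ratio scaling, quantile normalization, the 6 compared libraries alone, a pseudocount of 5 or no filter (adjusted p = 0.069, 0.087, 0.082, 0.052 and 0.13 in limma). With oxLDL the limma count was 0, with 5 at an unadjusted p under 0.05. In the block fit 1 of the list fell. Between oxLDL and LDL 1 of them was called, higher with oxLDL, and with the block 2 were, among them Srebf2 (log2 difference 0.59, adjusted p = 0.2 in limma, and 0.018 with the block). The count of 1 was 0 with median-ratio scaling, quantile normalization, the 6 compared libraries alone or no filter, and without Control 3 or any 1 of the LDL or oxLDL libraries. Soat1, which esterifies cholesterol for storage, was at 92.2 ± 12 TPM (SD, n = 3) in Control and at 90.6 ± 4.43 TPM (SD, n = 3) with LDL.

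**Figure D5:**
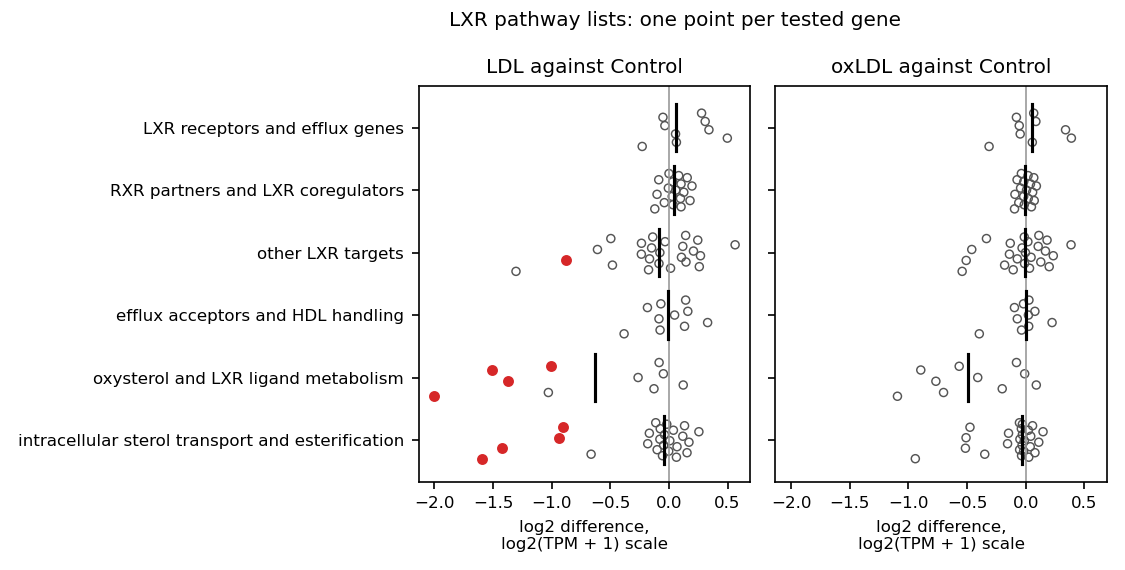
Log2 difference on the scale of log2(TPM + 1) of each tested gene for LDL and for oxLDL against Control, by list, with filled red points for an adjusted p under 0.05 in limma and a black bar for the list median. The red points, 9 in all, are falls with LDL in the last 2 lists and Elovl6, and the points of the LXR receptors and efflux genes lie between -0.31 and 0.50.

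Genes whose levels followed these most closely over the 9 libraries were sought among 11630 protein-coding genes by Pearson's r of log2(TPM + 1), as a description in which the libraries share treatment and replicate number. For Abca1 they were Dbn1 (drebrin, an actin-binding protein, r = 0.993), Hspb1 (a small heat shock protein, r = 0.985) and Tnfrsf26 (r = 0.969). For Abcg1 they were Pomgnt2 (r = 0.974), Gaa (lysosomal acid alpha-glucosidase, r = 0.969) and Ctsk (cathepsin K, r = 0.968). For Apoe they were Pcdhb17 (r = 0.979), Lgmn (a lysosomal protease, r = 0.969) and C1qa (r = 0.962), the last a macrophage marker of the list above.

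The 9 genes lie on 7 chromosomes in GENCODE M21 (GRCm38). Abca1 spans chr4:53030787-53159895 with 50 merged exons, Abcg1 chr17:31057675-31117988 and Apoe chr7:19696109-19699188. Nr1h2 spans chr7:44549616-44553951, Nr1h3 chr2:91184061-91202834, Pltp chr2:164839518-164857711, Lpcat3 chr6:124663027-124704418, Arl4c chr1:88673125-88702221 and Smpdl3a chr10:57794335-57811830.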

How the data were processed

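RNA from cultured valvular interstitial cells (50 ng total RNA, amplified cDNA, a kit that does not mark strand, 100 bp read pairs, per the labels' protocols) was sequenced in 9 libraries. The authors deposited TPM values for 51810 genes, made with STAR (no version given) and RSEM 1.3.1 on mm10 per the submitters' processing notes. Which gene annotation was used is not given there. TPM keeps no depth, so the read depth of each library is unknown and no interval for counting error can be given. Columns were matched to samples by title, with 0 left out.

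From these, log2(TPM + 1) was tested with limma 3.58.1 in R 4.3.3 (trended prior, two-sided) for 13495 genes, those whose mean reached 1 TPM. All 9 libraries shared 1 estimate of spread (6 residual degrees of freedom), with Benjamini-Hochberg adjustment over all genes tested and a threshold of 0.05. The same code, without the block, was run on simulated data with independent libraries and changes far larger than those of the 9 genes. That run cannot speak of differences as small as these or of libraries that deviate together. Exact permutation tests were left out because 3 against 3 libraries allow no p smaller than 0.1.

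Whether titles' replicate numbers pair libraries was checked on deviations from group means: r was 0.172 to 0.497 over 9 same-number pairs and -0.309 to 0.13 over 18 others. Deviations within a group sum to 0 for each gene, so these ranges are not independent of each other. By this check libraries of the same number deviated together, but no label says what they share, and the check used these same data. A second fit with a block for the number (4 residual degrees of freedom remain) therefore stands beside the results it bears on.

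The members, lists and tests were chosen with earlier results of these data known. All 9 members were named in every comparison. From each pathway list up to 4 called genes with the smallest p, or else up to 2 with the widest difference, were eligible; other list genes with values were added after their values were seen. Some list genes are counted but not reported here. Alternatives changed the pseudocount, filter, scaling, libraries and block. Promoter sequences are RefSeq's (GRCm38.p6) and gene positions GENCODE M21's (GRCm38).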

Additional observations from a re-analysis of the deposited data

How the results depend on the processing

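In limma, 0 of the 9 genes passed in any of the 3 comparisons or in the F test under every alternative that was run: pseudocounts of 0.25 and 5, no filter, a mean of at least 5 TPM, median-ratio scaling, quantile normalization, the 6 compared libraries alone (not run for the F test), the replicate block, and each of the 9 libraries left out. The same held without all 3 libraries numbered 1, an alternative chosen after seeing the data. At an unadjusted p under 0.05 the count ran from 0 to 3. Abcg1 has no value with a mean of at least 5 TPM, since it fell under that filter. With the replicate block, which pairs libraries by their number, the count of 0 stayed 0. The calls over all genes went from 45 to 115, from 2 to 17 and from 14 to 35 in the order of the comparisons. In the other lists the block moved the LDL count of other LXR targets from 1 to 4, and changed the calls given beside them in the report.

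Of 483 values of the 9 genes under alternatives 30 had the opposite sign, 27 with 1 library left out and 3 without the libraries numbered 1. Those 3 were 0.0761 for Nr1h3 and 0.0535 for Lpcat3 (LDL against Control) and -0.0156 for Abca1 (oxLDL against LDL). Differences of Abca1, Abcg1, Apoe, Arl4c and Nr1h2 for LDL against Control, and of Abca1, Abcg1 and Pltp for oxLDL against Control, kept their sign under all alternatives with a value. With 1 library left out, LDL against Control ran from -0.15 to 0.0699 for Nr1h3, -0.42 to 0.0323 for Pltp, -0.21 to 0.0853 for Lpcat3 and -0.10 to 0.20 for Smpdl3a. oxLDL against Control ran from -0.0859 to 0.0034 for Nr1h2, -0.15 to 0.0089 for Nr1h3, -0.23 to 0.47 for Apoe, -0.12 to 0.18 for Lpcat3, -0.0438 to 0.21 for Arl4c and -0.22 to 0.17 for Smpdl3a. oxLDL against LDL ran from -0.15 to 0.0738 for Nr1h3, -0.0685 to 0.14 for Abca1, -0.30 to 0.17 for Abcg1, -0.57 to 0.13 for Apoe, -0.20 to 0.0517 for Pltp and -0.23 to 0.10 for Smpdl3a. The cause of these sign changes, beyond fewer libraries, was not tested. With the depth unknown, 3 libraries a group and the intervals given, differences of the size seen in Abca1 and Abcg1 were not resolved over all genes.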
